A study of Mus musculus with 21 samples.

Results

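Wells whose names begin with DC2 were compared with wells whose names begin with DC1 in sorted cells of mouse back skin. They were chosen by that prefix alone: 151 DC2 wells and 152 DC1 wells, together 303 of the 1967 wells in the deposited table, of which 1823 are named for a cell population. All cells came from CD1 embryos at embryonic day 15, with no treatment or genetic alteration named for these 2 groups. The table also has a row for eGFP, a fluorescent protein, and the labels used here do not say which transgene it reports. Each well held a sorted cell, and each RNA molecule caught from it carried a random tag, so that copies of 1 molecule count once; such a count is called a UMI (unique molecular identifier). Libraries 1 to 7 each held a few wells of both groups, 29 DC2 wells and 30 DC1 wells in all. A further 244 wells, equally many of each group, filled part of library 8 (DC2) and part of library 9 (DC1), here called the deep plates. The labels do not say whether the prefixes came from the sort or from clustering of these cells, nor whether the libraries are separate animals. P-values therefore measure the spread between libraries only, and where names came from clusters, the expression of the same genes had a part in the naming.

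The dermal condensate is a cluster of fibroblasts that gathers under a thickened patch of epidermis, the placode, and becomes the dermal papilla of the hair follicle. Its cells leave the cell cycle, exchange signals with the placode through the WNT, FGF, BMP, hedgehog and activin pathways, and carry transcription factors such as SOX2, SOX18, FOXD1 and TBX18. Notch is a receptor cut on contact with a ligand on a neighbouring cell, and its freed part turns on the HES and HEY repressors. DC1 and DC2 are read here as an earlier and a later stage of the condensate from their numbers, which is a reading of the labels and not a result.

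The UMIs of all wells of 1 group in 1 library were added up, and a gene's level is its part of that sum scaled to the same total in each (CPM). In libraries 1 to 7 the DC1 sums held 20122 to 163535 UMIs. The DC2 sums held 2855 to 117119 UMIs, and the second smallest held 10736. The smallest, of library 1, came from 4 wells with 295 to 1046 UMIs each, where 1 UMI is worth 350 CPM. A level of 0 or of a few UMIs in that sum carries little weight, also where library 1 is counted for a direction. The median number of UMIs per well was lower in DC2 than in DC1 in 6 of the 7 libraries, with a mean log2 ratio of -0.89 (SD 1.34, n = 7, exact two-sided sign-flip permutation p = 0.125). It was -0.49 without library 1 (exact permutation p = 0.25, n = 6). It was -1.20 without library 7, the 1 library of opposite sign. The ratios left then share a sign, which fixes the exact permutation p at 0.03125, the smallest that 6 libraries allow. Leaving out any other library gave exact permutation p-values of 0.15625 to 0.25. The plot of UMIs in each well shows this spread. The deep sums held 1359197 UMIs for DC2 and 1436924 for DC1, with medians per well of 7752 and 10297.5. Population, library and plate position cannot be told apart in the deep plates, which share 0 positions, so their ratios have no test and their 95% intervals (exact binomial) cover counting error only.

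**Figure D1:**
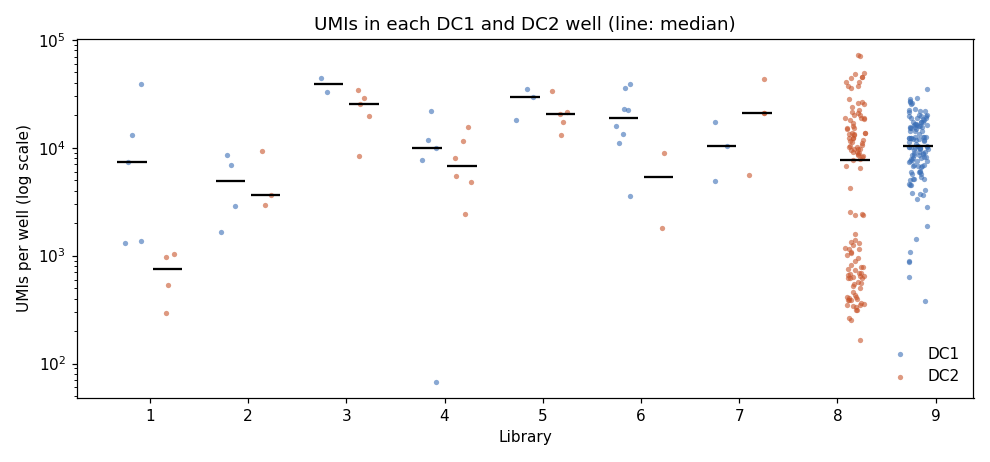
UMIs per well (log scale) in each library, with a point for every DC1 well (blue) and DC2 well (orange) and a line at the median. The 4 DC2 wells of library 1 lie between 295 and 1046 UMIs, and the DC2 median is below the DC1 median in 6 of libraries 1 to 7.

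All 10 condensate markers on the list had UMIs in both groups, with a median summed level of 3199 CPM in DC1 and 3437 CPM in DC2 of libraries 1 to 7. The deep plates gave sums of 3940 CPM in DC1 and 5135 CPM in DC2. Markers of other cells were low but unequal in the deep plates. The 10 epidermal markers gave 658 UMIs in DC1 of library 9, spread over 114 wells (93.4%), against 42 UMIs in 25 DC2 wells (20.5%) of library 8 (458 and 30.9 CPM). In libraries 1 to 7 their median sums were 141 CPM in DC1 and 125 CPM in DC2. The 10 fibroblast markers summed to 13985 CPM in DC1 and 9623 CPM in DC2 of the deep plates, whereas their medians in libraries 1 to 7 were 12772 and 13972 CPM. The 8 Schwann cell markers reached 260 CPM in DC1 and 127 CPM in DC2 of the deep plates, with Erbb3 and Cdh19 at 0 in both. Sox10 made up 173.3 and 80.9 CPM of these sums, and S100b went the other way with 4.87 and 25.01 CPM. In libraries 1 to 7 the Schwann markers gave 5 UMIs in DC1 and 19 in DC2. The 7 mural cell markers stood at 104 and 55.9 CPM in the deep plates, of which Cspg4 made up 94.6 and 46.4 CPM. No other mural marker had more than 7 UMIs in a deep sum. Muscle and immune markers summed to at most 6 UMIs in a deep sum, and erythroid markers to 0. The part of these cells in the deep-plate differences was not tested.

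Of 994 genes with enough UMIs to test in libraries 1 to 7, 4 rose from DC1 to DC2 (0.402%) and 5 fell (0.503%), or 0.905% in either direction (edgeR, Benjamini-Hochberg adjusted p under 0.05). Another 132 genes had an unadjusted p under 0.05. The genes that rose encode an activin subunit (Inhba), 2 secreted proteases (Adamts15, Adamts20) and the matrix protein fibulin 2 (Fbln2). Those that fell were the dermal transcription factor gene Twist2, the retinoic acid genes Crabp1 and Cyp26b1, the cyclin gene Ccnd1 and the ribosomal protein gene Rpl28. Of these 9 genes, 8 differed in the deep plates in the same direction, beside 59.8% (594) of all 994 genes. Among the 132 genes with only an unadjusted p under 0.05, 96 (72.7%) had the same direction there. The split of higher and lower calls was 6 and 4 with RLE scaling, under which the median log2 fold change of all genes moved from -0.09 to -0.02. Leaving out library 1 gave 14 and 6 calls (1.67% of 1198 genes tested there), while leaving out library 3 gave 0 and 2 and leaving out library 5 gave 0 and 1.

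**Figure D2:**
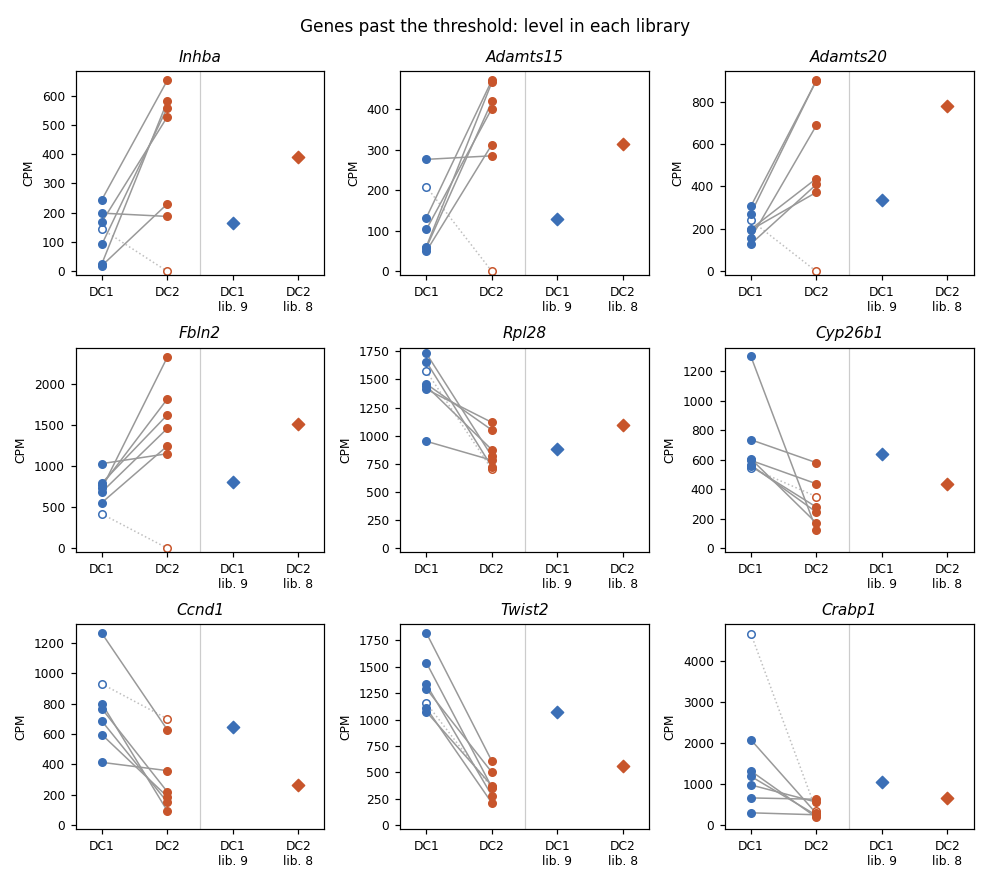
CPM of the 9 genes past the threshold in the DC1 (blue) and DC2 (orange) sums of libraries 1 to 7, joined by library, with open points and a dotted line for library 1, and diamonds for the deep plates (DC1 in library 9, DC2 in library 8). Twist2 levels of the 2 groups do not overlap, from 1074 to 1821 CPM in DC1 and from 209 to 606 CPM in DC2.

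Twist2 (chromosome 1, 91801461 to 91848028, mm10), a helix-loop-helix transcription factor of dermal fibroblasts, had the smallest p of all genes. Its DC1 levels were 1074, 1292 and 1821 CPM (lowest, median, highest), and its DC2 levels were 209, 358 and 606 CPM. The groups did not overlap, which held for 3 of the 994 genes (0.302%), Tcf4 and Heyl being the others. The fitted log2 fold change was -1.82 (SE 0.24, adjusted p = 5.68e-05), lower in 7 of 7 libraries. The DC2 sum of library 1 held 1 UMI of Twist2. Twist2 lost its call in 1 of 19 other settings, the 3 libraries 1, 2 and 4 alone. In the deep plates it stood at 1076 CPM in DC1 and 557 CPM in DC2, a ratio of 0.518 (0.474 to 0.565). Its median was 1001 CPM in the fibroblast sums and 2075 CPM in the DC0 sums, so the DC2 level was the lowest of the 4 named populations.

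Both retinoic acid genes that could be tested, of 17 listed, fell. Crabp1 (chromosome 9, 54764748 to 54773110), which binds retinoic acid in the cytoplasm, was at 298, 1188 and 4669 CPM in DC1 and at 186, 283 and 628 CPM in DC2. It was lower in 7 of 7 libraries, though the ranges overlap (log2 fold change -2.05, SE 0.45, adjusted p = 0.022). The highest DC1 level was that of library 1, and without that library the adjusted p was 0.052. Its adjusted p was also above the threshold without library 3 (0.14) and without library 5 (0.14). Cyp26b1 (chromosome 6, 84571414 to 84593908), the enzyme that breaks retinoic acid down, was at 545, 596 and 1303 CPM in DC1 and at 125.6, 279.4 and 581 CPM in DC2. It too was lower in 7 of 7 libraries, by 1.41 on the log2 scale (-1.41, SE 0.31, adjusted p = 0.022), and its call was lost without library 3, 4 or 5. Crabp1 and Cyp26b1 each had 1 UMI in the DC2 sum of library 1. The deep-plate ratios were smaller in size: 0.621 (0.571 to 0.675) for Crabp1, from 1046 to 650 CPM, and 0.681 (0.613 to 0.756) for Cyp26b1, from 640 to 436 CPM. Of the other members, Dhrs3, a reductase of retinaldehyde, had 35 UMIs in DC1 and 72 in DC2 of libraries 1 to 7 and stood at 73.8 and 188 CPM in the deep plates. It was too low to test. Over the 11 retinoic acid genes with at least 20 UMIs in the deep plates, 8 (72.7%) were higher in DC2, beside 56.1% of all 9854 genes. The median log2 ratio was 0.08 for the list and 0.08 for all genes.

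Inhba (chromosome 13, 16011851 to 16031621) encodes the subunit that pairs to form activin A. Its levels were 19.4, 144.4 and 244.6 CPM in DC1 and 0, 528 and 652 CPM in DC2, the 0 being library 1. DC2 was higher in 5 of 7 libraries, the exceptions being 1 and 2, and the ranges overlap also without library 1. The log2 fold change was 1.96 (SE 0.42, adjusted p = 0.022), and Inhba also passed without library 1 (adjusted p = 0.0108). Without library 4 the adjusted p was 0.053, and without library 3, 5 or 7 Inhba was too low to be tested. Deep-plate levels of Inhba were 165 CPM in DC1 and 391 CPM in DC2, a ratio of 2.37 (2.03 to 2.78). Fst, which encodes the activin-binding inhibitor follistatin, was too low to test, with 39 UMIs in DC1 and 26 in DC2. Its deep-plate levels were 123.9 and 61.8 CPM, a ratio of 0.499 (0.380 to 0.650). The receptor genes Tgfbr1 and Tgfbr2 had 56 and 50 UMIs in DC1 against 84 and 73 in DC2 of libraries 1 to 7, and neither could be tested. Of 25 activin and TGF-beta genes, 4 were tested, and Inhba alone passed.

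The other 3 genes that rose had levels of 0 in the DC2 sum of library 1 and were higher in DC2 in each of the other 6 libraries, with no overlap of the groups there (1.31% of the 994 genes). Adamts20 (chromosome 15, 94270163 to 94465418) encodes a secreted metalloprotease known for its part in the spread of pigment cells in skin. It was at 129, 198.8 and 307 CPM in DC1 and at 0, 437 and 900 CPM in DC2 (log2 fold change 1.499, SE 0.34, adjusted p = 0.03). Adamts15 (chromosome 9, 30899155 to 30922452), a related protease, was at 49.7, 103 and 276.1 CPM in DC1 and at 0, 401 and 471 CPM in DC2 (1.62, SE 0.38, adjusted p = 0.035). Fbln2 (chromosome 6, 91212455 to 91272540) encodes fibulin 2, a glycoprotein of elastic fibres and basement membranes. It was at 417, 728 and 1031 CPM in DC1 and at 0, 1460 and 2329 CPM in DC2 (0.93, SE 0.22, adjusted p = 0.035). Without library 1 their log2 fold changes were 1.68, 1.81 and 1.03. The deep plates gave ratios of 2.34 (2.09 to 2.61) for Adamts20, 2.45 (2.06 to 2.93) for Adamts15 and 1.89 (1.75 to 2.03) for Fbln2. These calls depended on single libraries: those of Adamts20 were lost without library 3, 4, 5, 6 or 7, those of Adamts15 without library 2, 3, 4, 5 or 6 and those of Fbln2 without library 2, 3, 5, 6 or 7. The adjusted p was at most 0.191 in these fits.

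Fbln2 was the 1 member called among 26 tested matrix genes (60 listed), of which 17 were higher in DC2. The median log2 fold change was 0.08, beside -0.09 over all genes. The summed share of these genes was higher in DC2 in 6 of 7 libraries, with medians of 2.85% in DC1 and 3.65% in DC2, but it was 3.10% and 3.08% in the deep plates. Col1a1, the chain that makes up most of fibrous collagen, was at 1541 CPM in the median DC1 sum and 1827 CPM in the median DC2 sum (log2 fold change 0.17, adjusted p = 0.775). Its deep-plate levels were 1651 and 1028 CPM, a ratio of 0.622 (0.582 to 0.665). Basement membrane genes were higher in DC2 for 8 of 10 tested, none past the threshold, with a median of 0.38. Among them the laminin gene Lama2 differed by 0.76 (SE 0.28, adjusted p = 0.185) and the collagen gene Col4a2 by 0.75 (SE 0.29, adjusted p = 0.208). Of 20 basement membrane genes with at least 20 UMIs there, 13 (65.0%) were higher in DC2 of the deep plates, beside 56.1% of all 9854 genes.

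Genes of the Notch pathway were mostly too low for the test across libraries 1 to 7. Of 31 listed, Heyl and Dtx3 were tested and neither passed. Heyl (chromosome 4, 123233556 to 123249875), a target gene of Notch, was at 0, 122.7 and 289 CPM in DC1 and at 292, 373 and 1047 CPM in DC2. It was higher in DC2 in 7 of 7 libraries without overlap, on 56 UMIs in DC1 and 205 in DC2 (log2 fold change 1.93, SE 0.57, adjusted p = 0.102). Library 1 held 1 UMI in DC2 and 0 in DC1. The groups came closest in library 5, at 289 CPM in DC1 and 292 CPM in DC2. Without library 1 Heyl did not pass either (1.89, edgeR adjusted p = 0.142). Heyl passed in a fit that also held the fibroblast sums and library 8 (1.95, adjusted p = 0.0183), where 2069 genes were tested and 50 (2.42%) passed. That fit took in the DC2 sum of library 8, so it is not separate from the deep plates. Its fibroblast sums held 132 to 220 wells each, against 2 to 8 in the DC1 and DC2 sums of libraries 1 to 7. Sums of so many more wells have another spread, for which they stayed out of the main fit. Calls of this larger fit, here and below, rest on an estimate of spread shared with them.

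Hey1 (chromosome 3, 8663359 to 8667256), another Notch target, passed in that larger fit (2.36, adjusted p = 0.00129) on 24 UMIs in DC1 and 97 in DC2. Its levels were 12.03, 38.9 and 99.4 CPM in DC1 and 0, 250 and 340 CPM in DC2, the 0 again being library 1. The ligand gene Dll1 passed there too (1.78, adjusted p = 0.0418), with 28 UMIs in DC1 and 73 in DC2 and levels of 0, 61.2 and 136 CPM against 0, 186 and 375 CPM. Its groups overlap. The receptor gene Notch1 did not pass in the larger fit (1.23, adjusted p = 0.0971), at 32.1, 85.6 and 156 CPM in DC1 and 0, 153.4 and 314 CPM in DC2. Hes5, a target gene read out in many Notch tissues, had 6 UMIs in DC1 and 44 in DC2. Hes1, which many signals other than Notch also turn on, had 77 and 79 UMIs.

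**Figure D3:**
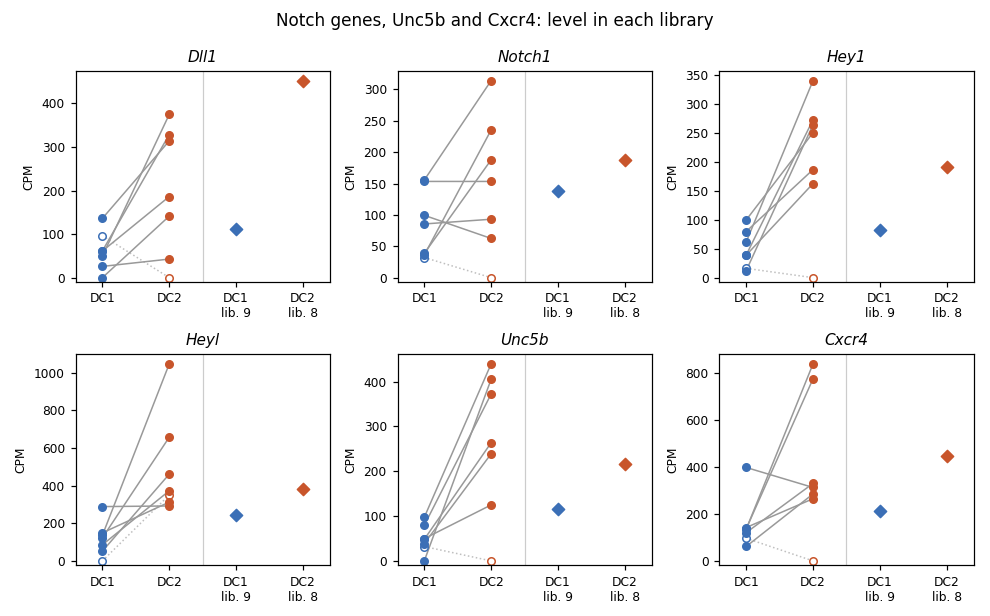
CPM of the Notch ligand Dll1, the receptor Notch1, the targets Hey1 and Heyl, and of Unc5b and Cxcr4, in the DC1 (blue) and DC2 (orange) sums of libraries 1 to 7, joined by library (open points and dotted line, library 1), with diamonds for the deep plates. Heyl is higher in DC2 in 7 of 7 libraries (in library 1 on 1 UMI), and Hey1 and Dll1 in 6 of 7, library 1 being the exception.

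The deep plates held the same order for most of these genes. Dll1 was at 112 CPM in DC1 and 452 CPM in DC2, a ratio of 4.04 (3.39 to 4.83). The ratio was 2.34 (1.87 to 2.94) for Hey1, 1.56 (1.36 to 1.79) for Heyl and 1.36 (1.13 to 1.65) for Notch1. Hes5 stood at 24.4 and 107.4 CPM, and the receptor gene Notch3 at 86.99 and 168 CPM. Hes1 was at 203 CPM in DC1 and 173 CPM in DC2, a ratio of 0.854 (0.716 to 1.02). Over the pathway 21 of 26 genes with at least 20 UMIs were higher in DC2, with a median log2 ratio of 0.38 beside 0.08 for all 9854 such genes. At least a 2-fold excess in DC2 was seen for 6 of the 26 genes, against 6.31% of all genes.

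With each well thinned to 3000 UMIs, Dll1 was found in 19 of 114 DC1 wells of library 9 (16.7%, exact binomial interval 10.3 to 24.8). It was found in 43 of 65 DC2 wells of library 8 (66.2%, 53.4 to 77.4). In fibroblast wells of libraries 1 to 7, which should lack this ligand, it was found in 0.260% of 1155 wells, at a median depth before thinning of 18509 UMIs. Heyl was found in 39.5% of those DC1 wells, 61.5% of the DC2 wells and 2.25% of the fibroblast wells. Shallower wells were left out, 57 in DC2 and 8 in DC1. Unthinned, the shares for Dll1 were 43.4% and 50.8%, and for Heyl 64.8% and 54.1%, the reverse of its order by CPM.

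Ccnd1 (chromosome 7, 144929931 to 144939925), the D-type cyclin that carries growth signals into the cell cycle, fell. It was at 413, 767 and 1264 CPM in DC1 and at 93.1, 219.1 and 701 CPM in DC2, lower in 7 of 7 libraries with some overlap. The log2 fold change was -1.43 (SE 0.30, adjusted p = 0.022), and the call was lost without library 5 (adjusted p = 0.132). The deep plates gave 647 CPM in DC1 and 265 CPM in DC2, a ratio of 0.41 (0.362 to 0.463). Ccnd2, the cyclin gene nearest to it in role, showed no such fall in libraries 1 to 7 (-0.10, SE 0.29, adjusted p = 0.923) but stood at 430 and 143 CPM in the deep plates. The sign of the Ccnd2 difference turned without library 3, 4 or 5. Cdkn1c, which encodes the brake p57, differed by -1.18 in libraries 1 to 7 (SE 0.55, adjusted p = 0.325), with its highest DC1 level, 7877 CPM, in library 1. Its difference was -0.73 without library 1, and it passed when no filter on low counts was set (-1.43, adjusted p = 0.00286). From the deep-plate sums Cdkn1c was higher in DC2, at 2822 CPM against 2144 CPM, a log2 ratio of 0.40. With wells thinned to 3000 UMIs the log2 ratio was -0.18, on 717 UMIs in DC1 and 360 in DC2. By the mean CPM of wells with at least 1000 UMIs it was -0.39. The deep-plate direction of Cdkn1c therefore depended on how the wells were weighted. Cdkn1a, which encodes p21, differed by -0.47 (SE 0.51, adjusted p = 0.716) and had a deep-plate ratio of 0.884 (0.801 to 0.976).

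Genes that copy DNA in S phase were lower in DC2 as a list, and their promoters are shown because many hold the letters that E2F factors bind. E2F factors turn on replication genes at the start of S phase. The 300-base windows (250 bases before to 50 after the start site, RefSeq, GRCm38.p6) of 2 helicase subunit genes follow, both on the minus strand, with the matched letters in capitals. Mcm3 is shown as it had the clearest difference of the pair, and its window is chr1:20820263-20820562. Mcm6 is shown for its 3 matches, 2 of which overlap, and its window is chr1:128359656-128359955.
Mcm3: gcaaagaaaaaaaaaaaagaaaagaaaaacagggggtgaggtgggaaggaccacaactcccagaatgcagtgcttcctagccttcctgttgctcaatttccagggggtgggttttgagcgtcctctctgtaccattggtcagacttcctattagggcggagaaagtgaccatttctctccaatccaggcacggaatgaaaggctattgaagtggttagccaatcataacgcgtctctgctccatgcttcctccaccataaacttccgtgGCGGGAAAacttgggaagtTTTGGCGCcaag
Mcm6: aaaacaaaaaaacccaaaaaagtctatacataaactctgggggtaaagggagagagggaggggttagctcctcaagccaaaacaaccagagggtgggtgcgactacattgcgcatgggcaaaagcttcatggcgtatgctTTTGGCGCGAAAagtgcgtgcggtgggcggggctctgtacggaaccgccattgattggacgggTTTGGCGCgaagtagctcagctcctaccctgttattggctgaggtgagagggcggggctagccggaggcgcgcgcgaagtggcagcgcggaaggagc

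The motifs searched on both strands were TTTGGCGC, TTTCCCGC, TTTGCCGC and TTTCGCGC, which share their first 3 and last 3 letters. They occurred in 18 of 53 windows of the S phase list (34.0%), in 5.26% of those of the G2 and mitosis list and in 2.26% of all 32851 windows. Of 60 S phase genes, 45 matched the promoter table. The Pcna window held 0 matches. A match describes the letters only.

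Mcm3 had 45 UMIs in DC1 and 5 in DC2 of libraries 1 to 7, too few to test there. It passed in the larger fit with fibroblasts (-2.25, adjusted p = 0.015). Its deep-plate levels were 61.2 CPM in DC1 and 15.5 CPM in DC2 on 88 and 21 UMIs, a ratio of 0.252 (0.149 to 0.410). The log2 ratio was -1.96 from these sums and -2.07 by the mean CPM of wells with at least 1000 UMIs. With wells thinned to 3000 UMIs it was -0.37, on only 12 UMIs in DC1 and 5 in DC2. Mcm3 was then found in 9.6% of DC1 wells and 7.7% of DC2 wells. Mcm6 had 84 and 33 UMIs and stood at 179 and 90.5 CPM in the deep plates. Pcna, the clamp that holds DNA polymerase to its template, was at 136, 248.5 and 788 CPM in DC1 and at 0, 186 and 250 CPM in DC2 (log2 fold change -1.33, SE 0.46, adjusted p = 0.173). It was lower in 6 of 7 libraries, and its deep-plate ratio was 0.41 (0.342 to 0.488).

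Of the 60 S phase genes only Pcna and Nasp were tested, and neither passed. The summed share of the list was lower in DC2 in 7 of 7 libraries, with medians of 0.238% of UMIs in DC1 and 0.165% in DC2. It was 0.329% and 0.158% in the deep plates. There, 54 of 56 genes with at least 20 UMIs were lower in DC2, with a median log2 ratio of -1.06, and 30 were at least 2-fold lower, against 5.13% of all genes. The G2 and mitosis list held 9 tested genes, of which all 9 were lower and 0 passed (8 of 9 lower with RLE scaling or DESeq2). Its share was lower in DC2 in 5 of 7 libraries, with medians of 0.870% and 0.653%. In the deep plates, 63 of 67 genes were lower, with a median of -0.70. Mki67, a protein of dividing cells, stood there at 176 CPM in DC1 and 65.5 CPM in DC2, and in libraries 1 to 7 it ranged from 0 to 842 CPM in DC1 and from 0 to 528 CPM in DC2. UMIs per well were also lower in DC2 in 6 of 7 libraries. In library 7, where they were higher in DC2, the S phase share was 0.221% in DC1 and 0.156% in DC2 and the G2 and mitosis share 0.632% and 0.511%. In libraries 2 and 4, where they were lower, the G2 and mitosis share was higher in DC2. These are values of single libraries, and the part of UMIs per well in the lower shares was not tested.

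**Figure D4:**
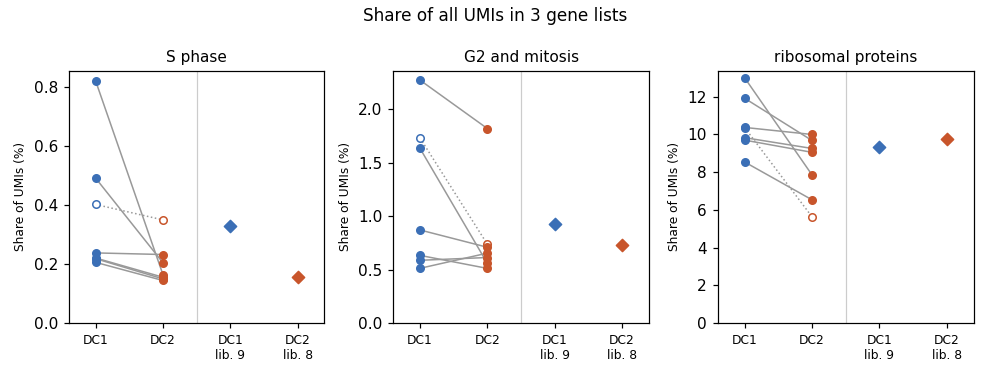
Share of all UMIs (%) in 3 gene lists for the DC1 (blue) and DC2 (orange) sums of libraries 1 to 7, joined by library (open points and dotted line, library 1), with diamonds for the deep plates. The S phase share is lower in DC2 in every library shown, and the ribosomal protein share is lower in libraries 1 to 7 but higher in the deep plates (9.32% in DC1, 9.73% in DC2).

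Rpl28 (chromosome 7, 4792874 to 4795066), a protein of the large ribosomal subunit, was at 950, 1459 and 1731 CPM in DC1 and at 701, 817 and 1118 CPM in DC2 (log2 fold change -0.74, SE 0.18, adjusted p = 0.043). It was lower in 7 of 7 libraries and the groups overlap. This was the least stable of the 9 calls, lost in 14 of 19 other settings, RLE scaling among them (adjusted p = 0.086). The deep plates went the other way, from 880 CPM in DC1 to 1093 CPM in DC2, a ratio of 1.24 (1.15 to 1.34). In libraries 1 to 7 all 71 ribosomal protein genes tested were lower in DC2 with TMM scaling (70 of 71 with RLE scaling or DESeq2), with a median of -0.35, and Rpl28 alone passed. In the larger fit with fibroblasts 8 of 73 fell and 0 rose, beside 26 lower and 24 higher of all 2069 genes tested there. Their summed share was lower in 7 of 7 libraries, from a median of 10.4% to 9.05%. Of 79 in the deep plates, 54 (68.4%) were higher in DC2 and 25 lower, beside 56.1% of all genes higher.

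Transcription factors that mark the condensate did not pass. Sox18, which in skin acts early in the papilla, was at 36.1, 153.4 and 845 CPM in DC1 and at 0, 435 and 2094 CPM in DC2 (log2 fold change 1.23, SE 0.43, adjusted p = 0.173). It was higher in 4 of 7 libraries and the ranges overlap widely, while the deep-plate ratio was 1.98 (1.81 to 2.17). Sox2, a factor of the papilla of the first follicles, had 37 UMIs in DC1 and 53 in DC2, with a deep-plate ratio of 1.24 (1.06 to 1.46). Foxd1 differed by -0.59 (SE 0.31, adjusted p = 0.408), and its deep-plate ratio of 0.930 (0.831 to 1.04) has an interval that includes 1. Tbx18 was lower in 7 of 7 libraries, at 276.1 CPM in the median DC1 sum and 120 CPM in the median DC2 sum (-1.04, SE 0.40, adjusted p = 0.208), with a deep-plate ratio of 0.663 (0.570 to 0.771). Prdm1, the gene of the repressor BLIMP1, was at 207 and 373 CPM in the median sums (0.84, SE 0.38, adjusted p = 0.306). Its deep-plate ratio was 1.84 (1.64 to 2.07). Sox11 differed by -0.35 (SE 0.26, adjusted p = 0.563) and had a deep-plate ratio of 1.00 (0.938 to 1.07). Sox4 and Trps1 were within 0.06 of 0 on the log2 scale in libraries 1 to 7, and both were lower in DC2 of the deep plates, with ratios of 0.761 (0.666 to 0.870) and 0.716 (0.644 to 0.795). Twist2 was the 1 gene past the threshold among 17 tested transcription factors of dermis and condensate.

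**Figure D5:**
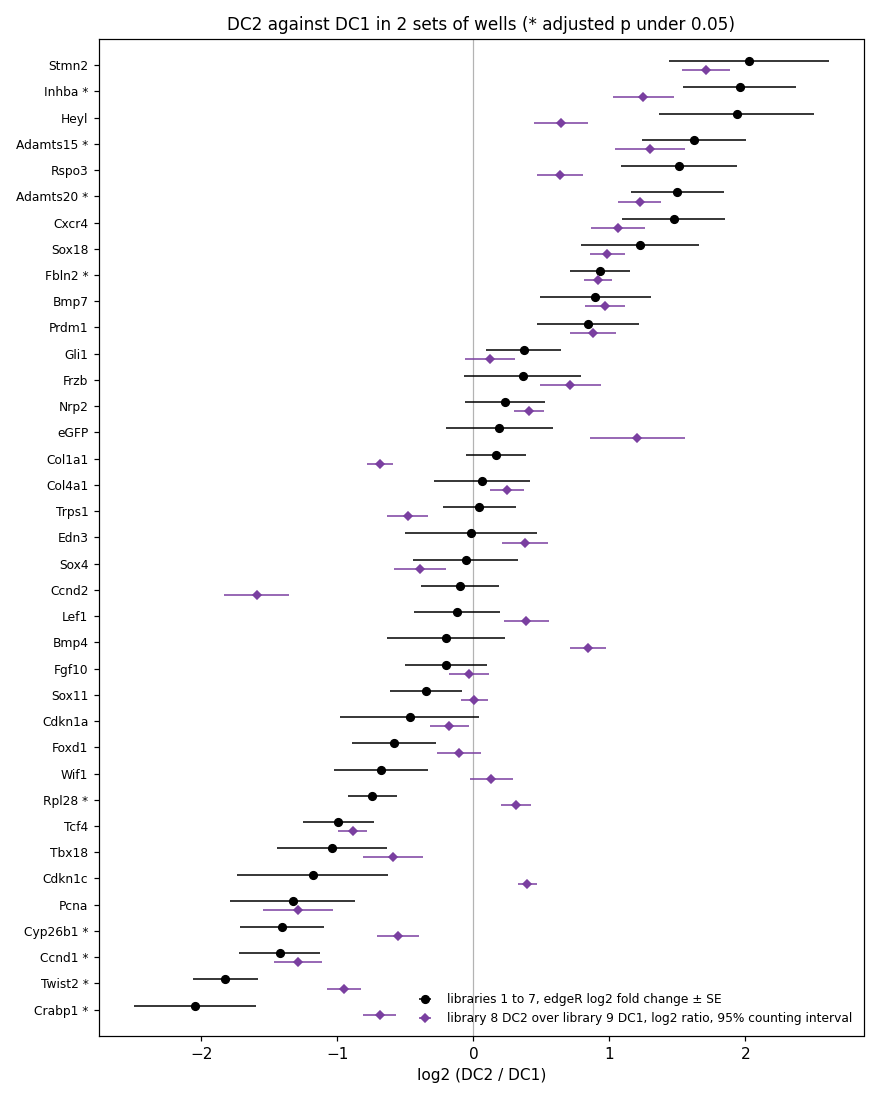
Log2 ratio of DC2 over DC1 for the named genes that were tested, with black points for libraries 1 to 7 (edgeR log2 fold change, bar: SE) and purple diamonds for library 8 DC2 over library 9 DC1 (bar: 95% counting interval), and a star at the 9 genes past the threshold. The starred genes other than Rpl28 lie on the same side of 0 in both sets. Bmp4, Cdkn1c, Col1a1, Edn3, Lef1, Sox11, Trps1 and Wif1 lie on opposite sides, some of them close to 0.

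Among signals of the condensate, no BMP gene passed of 4 tested. Bmp4, a ligand that slows placode growth, differed by -0.20 (SE 0.43, adjusted p = 0.896) in libraries 1 to 7, at 97.2, 517 and 1508 CPM in DC1 and 0, 410 and 679 CPM in DC2. It was higher in DC2 of the deep plates, at 923 CPM against 515 CPM (ratio 1.79, 1.64 to 1.96). Bmp7 was at 301 and 701 CPM in the median sums (0.90, SE 0.41, adjusted p = 0.312), with a deep-plate ratio of 1.95 (1.77 to 2.16). Bmp3, a BMP-family ligand that can oppose the others, had 31 UMIs in DC1 and 73 in DC2 of libraries 1 to 7. Its deep-plate levels were 60.5 and 237 CPM, a ratio of 3.91 (3.08 to 5.02). Fgf10 differed by -0.20 (SE 0.30, adjusted p = 0.818) with a deep-plate ratio of 0.978 (0.882 to 1.08). Edn3, which encodes an endothelin that acts on pigment cells, differed by -0.02 (SE 0.48, adjusted p = 0.997), and its deep-plate ratio was 1.30 (1.15 to 1.46).

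WNT genes did not pass in any of 11 tested. Rspo3, which enhances WNT signals at the receptor, came nearest among those higher in DC2, at 97.2, 180 and 321 CPM in DC1 and 0, 373 and 844 CPM in DC2 (1.51, SE 0.43, adjusted p = 0.0974). It passed in the larger fit (1.51, edgeR adjusted p = 0.0194) but not without library 1 (1.65, edgeR adjusted p = 0.052). Its deep-plate ratio was 1.56 (1.39 to 1.75). Of the 16 listed WNT genes tested in the larger fit, 2 passed as higher and 1 as lower. Wnt5a was also higher there (1.38, edgeR adjusted p = 0.0389), but stood at 327 CPM in DC1 and 310 CPM in DC2 of the deep plates. Tcf4, the gene of a helix-loop-helix transcription factor, listed here with the WNT genes, was lower in 7 of 7 libraries. Its levels were 1072, 1441 and 2840 CPM in DC1 and 0, 921 and 1025 CPM in DC2 (-0.99, SE 0.26, adjusted p = 0.0677). Tcf4 passed in the larger fit (-0.95, edgeR adjusted p = 0.0154) but not without library 1 (-0.79, edgeR adjusted p = 0.052). The deep-plate ratio was 0.541 (0.502 to 0.583). Lef1, a factor that carries WNT signals to DNA, differed by -0.12 (SE 0.32, adjusted p = 0.918), and its deep-plate ratio was 1.31 (1.17 to 1.47). The secreted WNT inhibitor genes were unequal: Dkk1 had 60 UMIs in DC1, 41 of them in library 6, and 6 in DC2, Wif1 differed by -0.68 (SE 0.35, adjusted p = 0.381) and Frzb by 0.36 (SE 0.43, adjusted p = 0.737). Their deep-plate ratios were 0.648 (0.490 to 0.852), 1.10 (0.980 to 1.23) and 1.64 (1.41 to 1.91). The hedgehog factor Gli1 was at 253 and 375 CPM in the median sums (0.37, SE 0.28, adjusted p = 0.558), and its deep-plate ratio of 1.09 (0.958 to 1.23) includes 1.

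Cxcr4, the receptor of the chemokine CXCL12, was at 61.4, 135 and 398 CPM in DC1 and at 0, 312 and 838 CPM in DC2 (1.47, SE 0.38, adjusted p = 0.0608). It passed without library 1 (1.56, edgeR adjusted p = 0.0406) but not in the larger fit (1.25, edgeR adjusted p = 0.0953). Its deep-plate ratio was 2.09 (1.82 to 2.40). Unc5b, a receptor for netrin guidance signals, had 28 UMIs in DC1 and 120 in DC2, with levels of 0, 48.1 and 97.2 CPM against 0, 264 and 440 CPM. It passed in the larger fit (2.44, adjusted p = 0.000777), with a deep-plate ratio of 1.88 (1.55 to 2.29). Nrp2, a co-receptor for semaphorins, differed by 0.23 (SE 0.29, adjusted p = 0.76), with a deep-plate ratio of 1.33 (1.23 to 1.43). The reporter eGFP was close in libraries 1 to 7, at 226 and 208 CPM in the median sums (0.19, SE 0.39, adjusted p = 0.895). In the deep plates eGFP was at 70.3 CPM in DC1 and 162 CPM in DC2, a ratio of 2.30 (1.81 to 2.94).

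Some of the widest differences lay in genes too low for the test in libraries 1 to 7, and the following were picked after their values had been seen. Tspan7, a membrane protein with 4 spans, had 34 UMIs in DC1 and 215 in DC2 and was higher in DC2 in 6 of 7 libraries. It passed without library 1 (3.397, adjusted p = 3.85e-05) and had a deep-plate ratio of 3.02 (2.60 to 3.52). Lrrc15, a leucine-rich repeat protein of the cell surface, had 28 and 120 UMIs and passed without library 1 as well (2.35, adjusted p = 0.00828), with a deep-plate ratio of 4.51 (3.62 to 5.66). Vdr, the vitamin D receptor, went the other way, with 79 UMIs in DC1 and 4 in DC2. It was lower in 7 of 7 libraries and at 0 in 5 of the 7 DC2 sums, and had a deep-plate ratio of 0.352 (0.230 to 0.527). Library 1 held 1 UMI of Vdr in DC1 and 0 in DC2. Csrp2, a LIM protein, had 49 and 96 UMIs, was higher in 7 of 7 libraries, and passed in the larger fit (1.42, adjusted p = 0.0381). Without library 1 Csrp2 did not pass (1.47, edgeR adjusted p = 0.168), and its deep-plate ratio was 3.44 (2.75 to 4.34). Stmn2, best known from growing neurons, was tested without passing (2.03, SE 0.59, adjusted p = 0.102) and had a deep-plate ratio of 3.27 (2.89 to 3.70). Neuron markers other than Stmn2 were near 0 there, since Stmn2 made up 340 of the 387 UMIs of the 5 neuron markers in DC1 and 1051 of 1086 in DC2.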

How the data were processed

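Cells were sorted into plates and made into 9 libraries by SORT-seq, a form of CEL-Seq2, per the labels' protocols. The submitters' processing notes name BWA 0.6.2-r126, Cufflinks 2.1.1, Bowtie2 and TopHat2 2.0.3, without their roles, and the genome build mm10. The authors deposited 1 table of expected counts per gene and well: UMI numbers with a correction for tags drawn more than once from 4096, as read from the values, of which 0 of 7425911 above 0 were off that formula by more than 0.0051. Rounding to whole UMIs moved 13.5% of them; the design had assumed whole counts. The 86 spike-in rows were left out of totals, and wells named for spike-ins were not used. The 12 bulk samples were not analysed here.

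UMIs were summed per population and library. The DC0, DC1 and DC2 sums of libraries 1 to 7 were fitted with edgeR 4.0.16 (TMM, filterByExpr, glmQLFit, glmQLFTest; R 4.3.3) with library as a block, sums of at least 2 wells, and Benjamini-Hochberg adjustment at 0.05. DC0 sums entered to share the estimate of spread. The block is the plate itself; deviations of DC1 and DC2 sums from the same library correlated at -0.089 to 0.245. Deep plates were compared as CPM with exact 95% binomial intervals (scipy 1.17.1). Scripts were tested on simulated data. Alternatives included DESeq2 1.42.0, RLE scaling, thinning and leaving out each library. Gene coordinates are from GENCODE release 21 (mm10).

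Named genes were up to 15 rises and 15 falls with adjusted p under 0.05 and an average log2 CPM of at least 5, plus a list of 48 genes and members of the gene lists. The members and lists were chosen with earlier results of these data known. Among DC1 and DC2 wells, 0 pairs were identical.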

Additional observations from a re-analysis of the deposited data

Results flagged for a closer look

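For the 9 genes past the threshold, the 18 groups of 7 libraries were searched for a value far from the rest, and 4 were found, where chance gives about 1 in 20 groups. Adamts15 was at 0 CPM in the DC2 sum of library 1, the shallowest sum. Crabp1 was at 4669 CPM in the DC1 sum of library 1. Cyp26b1 was at 1303 CPM in the DC1 sum of library 4. Rpl28 was at 950.1 CPM in the DC1 sum of library 5. The values of Adamts15 and Rpl28 lie against the called direction of their gene, and those of Crabp1 and Cyp26b1 lie in it. Without library 5 the Rpl28 difference was -0.77 (edgeR adjusted p = 0.132), and the fits of the other 3 genes stand beside them above.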

How the results depend on the processing

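The number of genes called higher and lower in DC2 (4 and 5) became 11 and 15 without a filter on low counts, 11 and 4 with the DC1 and DC2 sums alone, 24 and 26 with 4 populations and libraries 1 to 8, 10 and 12 with sums of at least 5 wells (1 library paired), 2 and 1 after thinning to 3000 UMIs (fewer genes tested), 12 and 8 with wells of at least 1000 UMIs, 5 and 3 in libraries 3, 5, 6 and 7, and 0 and 0 in libraries 1, 2 and 4 (26 at an unadjusted p under 0.05 of 441, edgeR). Libraries 3, 5, 6 and 7 share a tag in their labels; the difference between them and the others passed for 0 of 994 genes (26 at an unadjusted p under 0.05, edgeR; DESeq2 was not run on this). Without the DC2 sum of library 1, chosen after seeing the data, they were 12 and 6. Without the replicate block they were 3 and 2. RLE scaling gave 6 and 4, and DESeq2 6 and 7. Leaving out a library gave 0 to 14 higher and 1 to 6 lower. The causes were not tested. The direction in the deep plates held for 8 of 9 genes under all 3 alternatives. The UMI ratio per well ranged from -1.20 to -0.49 with a library left out.

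The 9 called genes kept their direction under each alternative that tested them; 58 such values no longer passed the threshold. With sums of at least 5 wells 2 of them were near 0: Crabp1 at -0.10 and Fbln2 at 0.13. Of the named genes not called, 24 values passed under an alternative. Among other genes, 44 values changed sign, none of them past the threshold in the main comparison. They were, on the log2 scale: with sums of at least 5 wells, Bmp4 2.32, Frzb -1.18, Cdkn1a 1.33, Cdkn1c 0.15, Edn3 1.83 and Sox4 0.74. Without a filter, Col1a1 -0.047, Col4a1 -0.093 and Trps1 -0.13. Without the replicate block, eGFP -0.024, Col4a1 -0.023, Trps1 -0.030 and Sox4 0.0076. In libraries 3, 5, 6 and 7, Fgf10 0.19, Edn3 0.14, Col1a1 -0.34, Col4a1 -0.21 and Sox4 0.21. In libraries 1, 2 and 4, Gli1 -0.056, Lef1 0.29 and Trps1 -0.41. With RLE scaling, Edn3 0.047 and Sox4 0.0071. With DC1 and DC2 alone, Edn3 0.14, Col4a1 -0.039 and Sox4 0.070. With 4 populations, Edn3 0.13 and Sox4 0.24. With wells of at least 1000 UMIs, Edn3 0.0090, and without the DC2 sum of library 1, 0.052. With a library left out, the ranges were Bmp4 -0.40 to 0.10, Lef1 -0.23 to 0.27, Ccnd2 -0.21 to 0.18, Edn3 -0.20 to 0.26, Col4a1 -0.14 to 0.29 and Sox4 -0.30 to 0.18.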

Other observations

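Some genes differed in the deep plates and hardly in libraries 1 to 7, and they are given as values picked after they were seen. Nfib, a nuclear factor of skin and many other tissues, was at 114 CPM in DC1 and 9.56 CPM in DC2 of the deep plates, on 28 and 23 UMIs in libraries 1 to 7. Nrp1, a semaphorin and VEGF co-receptor, was at 287 and 89.0 CPM there, with a log2 fold change of 0.09 in libraries 1 to 7. Igf2, a growth factor, was at 572 and 152 CPM, with -0.43 in libraries 1 to 7. The laminin gene Lama4 was at 80.7 and 15.5 CPM, with 33 and 20 UMIs in libraries 1 to 7. The same DC1 plate held the 658 UMIs of epidermal markers described above, and their part in these differences was not tested.

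Genes that were higher in DC2 in both sets but too low to test included Col11a1, a fibrillar collagen gene, with 12 and 69 UMIs in libraries 1 to 7 and 29.9 and 127 CPM in the deep plates. Notum, an enzyme that inactivates WNT ligands, had 17 and 38 UMIs and stood at 37.6 and 97.1 CPM.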
